A study of Mus musculus with 2 samples.

Results

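The 6 microRNA genes that lie inside the mouse Hox clusters, Mir10a, Mir10b, Mir196a-1, Mir196a-2, Mir196b and Mir615, were examined in the embryonic midbrain. They were taken by gene identifier from the 1973 microRNA genes counted in each library, and all 6 were found there. The tissue was midbrain of mouse embryos (strain B6NCrl, both sexes pooled, healthy, no allele or treatment given) at embryonic day 10.5, from which RNA shorter than 30 nt was sequenced. The series holds 1 group of 2 libraries, labelled as biological replicates 1 and 2 and made from pools of 69 and 51 embryos. There is no other tissue, stage or treatment, so no contrast between conditions can be made, and a pool does not show how single embryos vary. In bulk tissue, fewer cells of a type and less RNA per cell cannot be told apart.

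The 4 Hox clusters encode transcription factors that set position along the head to tail axis. Genes at the 3′ end of a cluster are active farthest forward, in the hindbrain, and those toward the 5′ end are active in the trunk and tail, while the midbrain lies in front of the Hox domain. The microRNAs of these clusters are known to follow the territory of the Hox genes beside them and to repress Hox messages, the mir-196 family acting on Hoxb8 and mir-10 on Hox genes near it. They therefore serve as marks of hindbrain, spinal cord and trunk.

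Their place in the clusters differs by family (GENCODE M21 on GRCm38, the mm10 build, 1-based). Mir10a (ENSMUSG00000065519.1, chr11:96317165-96317274, plus strand) lies between Hoxb5 and Hoxb4, 992 bases from Hoxb4 and in no annotated exon or intron of its strand. Mir10b (ENSMUSG00000065500.2, chr2:74726070-74726137, plus strand) lies in an intron of Hoxd3 and Hoxd4 transcripts. Mir615 (ENSMUSG00000076010.1, chr15:103014910-103015001, plus strand) lies in an intron of Hoxc5. The mir-196 genes stand farther toward the 5′ ends. Mir196b (ENSMUSG00000065443.1, chr6:52230081-52230165, minus strand) overlaps an exon of a Hoxa9 transcript and ends 1031 bases from Hoxa10. Mir196a-1 (ENSMUSG00000065546.1, chr11:96265164-96265265, plus strand) lies between Hoxb13 and Hoxb9, 6191 bases from the latter and outside any transcript of its strand. Mir196a-2 (ENSMUSG00000065488.1, chr15:102973350-102973434, plus strand) lies between Hoxc10 and Hoxc9, in an intron of a long Hoxc5 transcript. In distance from the 3′ end of the cluster, Mir615 stood at 21.9 kb, Mir10b at 39.1 kb and Mir10a at 51.1 kb, against 63.5 kb for Mir196a-2, 74.6 kb for Mir196b and 103.1 kb for Mir196a-1. The other annotated microRNA gene within the spans of the clusters, Gm44463 in Hoxd, was not analysed here.

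**Figure D1:**
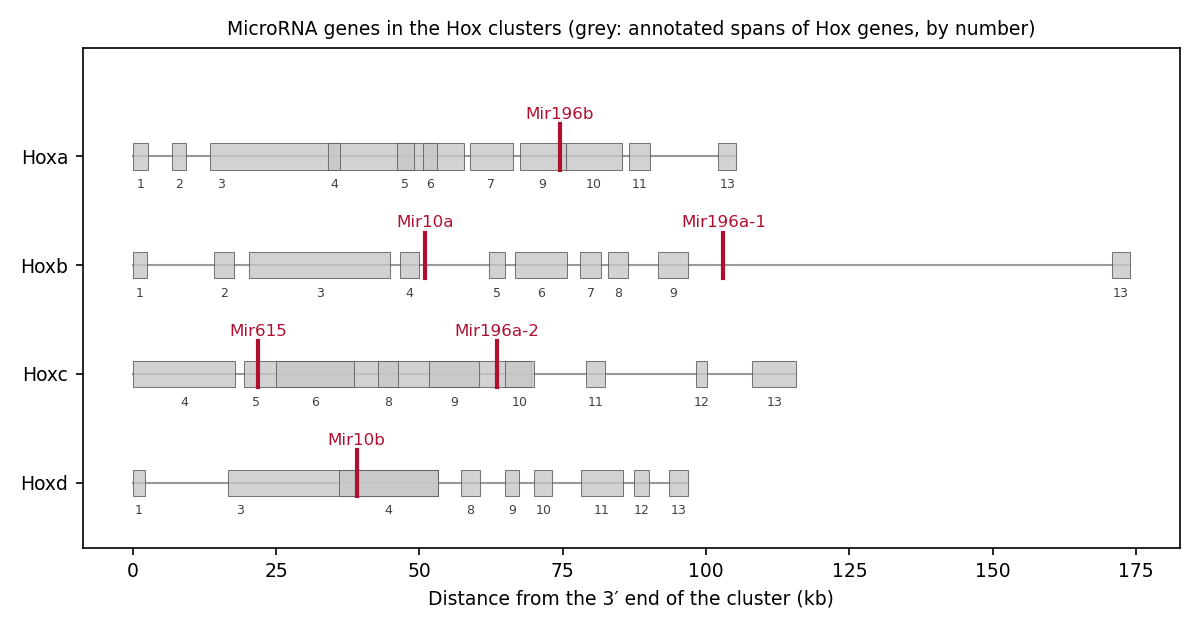
Position of the 6 microRNA genes (red) among the annotated spans of the Hox genes (grey boxes with the number of the Hox gene), one line per cluster, plotted as distance from the 3′ end of the cluster in kb. The mir-10 genes and Mir615 lie near Hox genes 3 to 6, and the mir-196 genes near Hox genes 9 and 10.

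All 6 members have mature sequences in the RefSeq table (GRCm38.p6), which are shown because their likeness decides which reads can be assigned to 1 gene. Capitals mark the seed, bases 2 to 8 from the 5′ end, which pairs with target messages.
miR-10a-5p: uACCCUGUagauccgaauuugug
miR-10b-5p: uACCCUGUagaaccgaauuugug
miR-196a-5p: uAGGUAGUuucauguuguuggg
miR-196b-5p: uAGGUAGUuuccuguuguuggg
miR-615-3p: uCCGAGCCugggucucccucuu
miR-615-5p: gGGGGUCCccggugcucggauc
Counted from the 5′ end, miR-10a-5p and miR-10b-5p differ by the single substitution U12A, and miR-196a-5p and miR-196b-5p by A12C. Among the 1679 mature names in the table, the seed ACCCUGU belonged to these 2 mir-10 forms alone, and AGGUAGU to miR-196a-5p and miR-196b-5p alone. The seeds of both Mir615 arms belonged to no other mature form of the table.

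Mir196a-1 and Mir196a-2 encode the same miR-196a-5p, and the sequence of each was found in 1 other of the 1005 RefSeq hairpins. Reads that mapped to several places, 30.9% of the replicate 1 library and 29.5% of replicate 2, were tallied apart and do not enter any gene's count. Full-length miR-196a-5p reads can hence be missing from both genes. Their 3p arms differ, and neither occurred in another hairpin.
miR-196a-1-3p: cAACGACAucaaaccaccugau
miR-196a-2-3p: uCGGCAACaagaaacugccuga
The 5p arms of Mir10a and Mir10b, and that of Mir196b, were each 1 mismatch from another hairpin. The Mir615 arms were at least 5 mismatches from any other. The number of mismatches allowed in mapping is not given in the sources used, and how far reads were exchanged between Mir10a and Mir10b was not tested.

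The replicate 1 library assigned 3297835 reads to genes and replicate 2 assigned 3682410. Levels are given as CPM, the reads of a gene per 1000000 gene-assigned reads. They were not divided by hairpin length, since a read shorter than 30 nt covers about 1 mature arm. Intervals are exact 95% binomial (Clopper-Pearson) intervals and cover the counting error of reads only, not the spread between pools. The reads carry no molecular identifiers and may be copies of 1 molecule, so the intervals can be too narrow for counts of molecules.

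Hox-embedded microRNAs were present at low levels in both midbrain pools. Together the 6 genes held 534 reads in replicate 1 and 1454 in replicate 2. This was 162 CPM (0.0162% of gene-assigned reads, interval 0.0148 to 0.0176%) and 395 CPM (0.0395%, interval 0.0375 to 0.0416%), with a mean of 278 ± 165 CPM (SD, n = 2). Of the 6 genes, 5 had at least 1 read in both libraries and 4 had at least 10, against 621 and 399 of all 1973 genes. Mir92b, known from neural progenitors, had 255 times the reads of Mir10a in replicate 1 (interval 226 to 288) and 144 times in replicate 2 (133 to 156).

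Mir10a was the most abundant member. It had 275 reads in replicate 1, or 83.4 CPM (interval 73.8 to 93.8), and 648 reads in replicate 2, or 176 CPM (163 to 190). Its mean was 130 ± 65.5 CPM (SD, n = 2), which put it at rank 204 of the 1973 genes. Mir10b, its counterpart in the Hoxd cluster, had 152 reads and 46.1 CPM (39.1 to 54.0) in replicate 1 and 492 reads and 134 CPM (122 to 146) in replicate 2. Its mean of 89.8 ± 61.9 CPM (SD, n = 2) ranked 229. Both genes were higher in replicate 2, and their intervals did not overlap between the libraries. Differences beyond counting error were common over all genes. Of the 485 genes with at least 10 reads in sum, 25.2% had an interval of the ratio of the libraries above 1, and 26.8% below 1.

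Mir196b was the only mir-196 gene with more than 20 reads in a library. It had 82 reads and 24.9 CPM (19.8 to 30.9) in replicate 1 and 260 reads and 70.6 CPM (62.3 to 79.7) in replicate 2, a mean of 47.7 ± 32.3 CPM (SD, n = 2) at rank 261. Mir196a-2 had 2 reads in replicate 1 (0.606 CPM, interval 0.0734 to 2.19) and 14 in replicate 2 (3.80 CPM, 2.08 to 6.38). Mir196a-1 had 0 of 3297835 reads and 0 of 3682410, which allows up to 0.910 and 0.815 CPM by a limit of 3 reads. Both values for the mir-196a genes leave out reads that map to the pair alike, so they do not give the level of miR-196a.

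Mir615 had 23 reads and 6.97 CPM (4.42 to 10.5) in replicate 1 and 40 reads and 10.9 CPM (7.76 to 14.8) in replicate 2. Its mean was 8.92 ± 2.75 CPM (SD, n = 2), at rank 345. Here the intervals of the libraries overlapped. Nearly every member read lay in the column taken as the strand of the gene, the exception being 1 read of Mir10a in replicate 2.

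**Figure D2:**
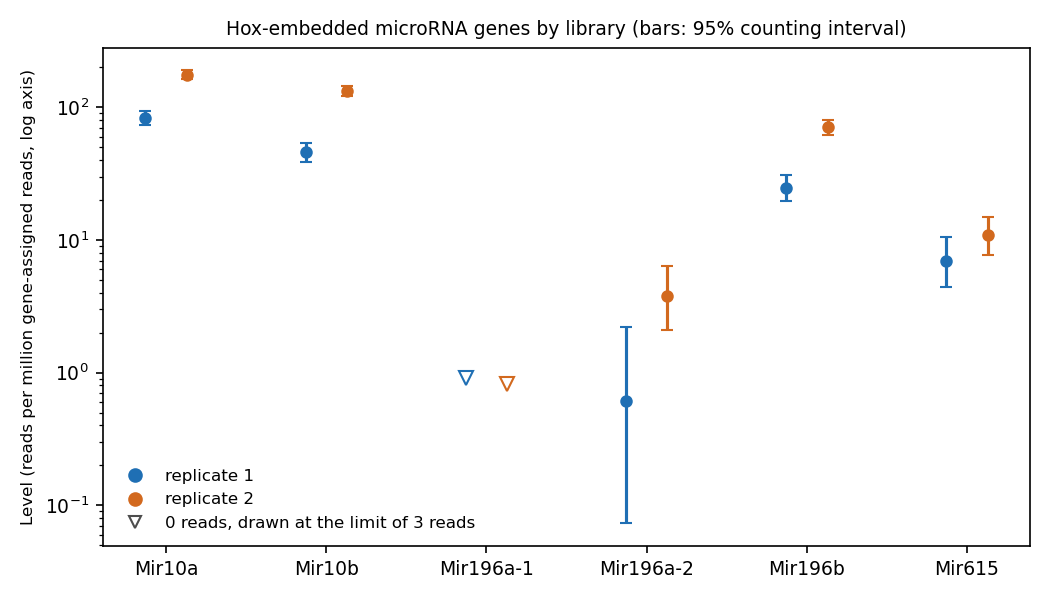
Level of each member in CPM on a log axis, with 1 point per library (blue replicate 1, orange replicate 2) and exact 95% counting intervals as bars; open triangles mark 0 reads, drawn at the limit of 3 reads. Mir10a, Mir10b and Mir196b are higher in replicate 2 with no overlap of their intervals, while those of Mir615 overlap. Of the 485 genes with at least 10 reads in sum, 25.2% had an interval of the ratio of the libraries above 1, and 26.8% below 1.

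The order of the members was the same in both libraries, Mir10a first, then Mir10b, Mir196b, Mir615, Mir196a-2 and Mir196a-1. Within a library the leading genes differed beyond counting error. Mir10a had 1.81 times the reads of Mir10b in replicate 1 (interval 1.48 to 2.22) and 1.32 times in replicate 2 (1.17 to 1.48). Mir10b had 1.85 times the reads of Mir196b in replicate 1 (1.41 to 2.46) and 1.89 times in replicate 2 (1.62 to 2.21). Mir196b had 3.57 times the reads of Mir615 (2.22 to 5.93) and 6.50 times (4.65 to 9.31). Across the pools the neighbours in this order did not all separate. The range of Mir10b, 46.1 to 134 CPM, overlapped that of Mir10a, 83.4 to 176 CPM, and that of Mir196b, 24.9 to 70.6 CPM. The ranges of Mir196b, Mir615 and Mir196a-2 did not overlap one another. Mir196a-2 and Mir196a-1 were not separated, since the 0.606 CPM of Mir196a-2 in replicate 1 is below the 0.910 CPM that 0 reads allow there.

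By family, the mir-10 genes, which stand beside Hoxb4 and Hoxd4, held most of the member reads. The 2 mir-10 genes made up 80.0% of the member reads in replicate 1 (interval 76.3 to 83.3%) and 78.4% in replicate 2 (76.2 to 80.5%). The 3 mir-196 genes, of the trunk part of the clusters, made up 15.7% (12.7 to 19.1%) and 18.8% (16.9 to 21.0%). The reads of the mir-10 genes were 5.08 times those of the mir-196 genes in replicate 1 (4.01 to 6.50) and 4.16 times in replicate 2 (3.64 to 4.76). The mir-10 ratio between the pools was 0.819 times that of mir-196, with an interval of 0.618 to 1.08, so a difference in the balance of the families was not detectable at this depth. Since full-length miR-196a-5p reads can be missing, the mir-196 share can be lower than the family's own.

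The libraries were next compared, with log2 ratios of replicate 2 over replicate 1 after scaling of all genes by TMM (trimmed mean of M-values) and addition of 0.5 reads. With 1 library on each side, such ratios compare 2 libraries and not conditions, and they have no replicate check. In replicate 2 the 6 genes summed were 2.45-fold higher (counting interval 2.21 to 2.71). There, Mir10b was 2.91-fold higher (2.42 to 3.51, log2 ratio 1.54), Mir196b 2.85-fold (2.21 to 3.70, log2 ratio 1.5) and Mir10a 2.12-fold (1.84 to 2.45, log2 ratio 1.08). Mir196a-2 had a ratio of 6.29 on its 2 and 14 reads, with an interval from 1.44 to 57.0. Mir615 had a ratio of 1.56 with an interval of 0.913 to 2.73, which holds 1.

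Only 3 of the 6 members reached a mean of 10 CPM, Mir10a, Mir10b and Mir196b, and all 3 were past 2-fold higher in replicate 2. Over all 338 genes of that level, 18 (5.33%) were past 2-fold higher and 7 (2.07%) past 2-fold lower (13 and 13 when scaled by all reads of each library), with a median log2 ratio of -0.03 and an SD of 0.57. Ordered from the highest ratio, Mir10b was the 3rd, Mir196b the 4th and Mir10a the 18th of the 338. Mir10a was thus the last gene inside the 2-fold limit, and Mir486, at a log2 ratio of 0.98, the first outside. When the ratio was scaled by all reads of each library, Mir10a was at a log2 ratio of 0.96 and outside it. The counting intervals of Mir10a, Mir10b and Mir196b lay above 1, as did those of 122 of the 485 genes with at least 10 reads in sum (25.2%), while 130 (26.8%) lay below 1. Mir196a-2 reached 10 reads in sum only through replicate 2, where it was higher, so its interval is given as a description.

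**Figure D3:**
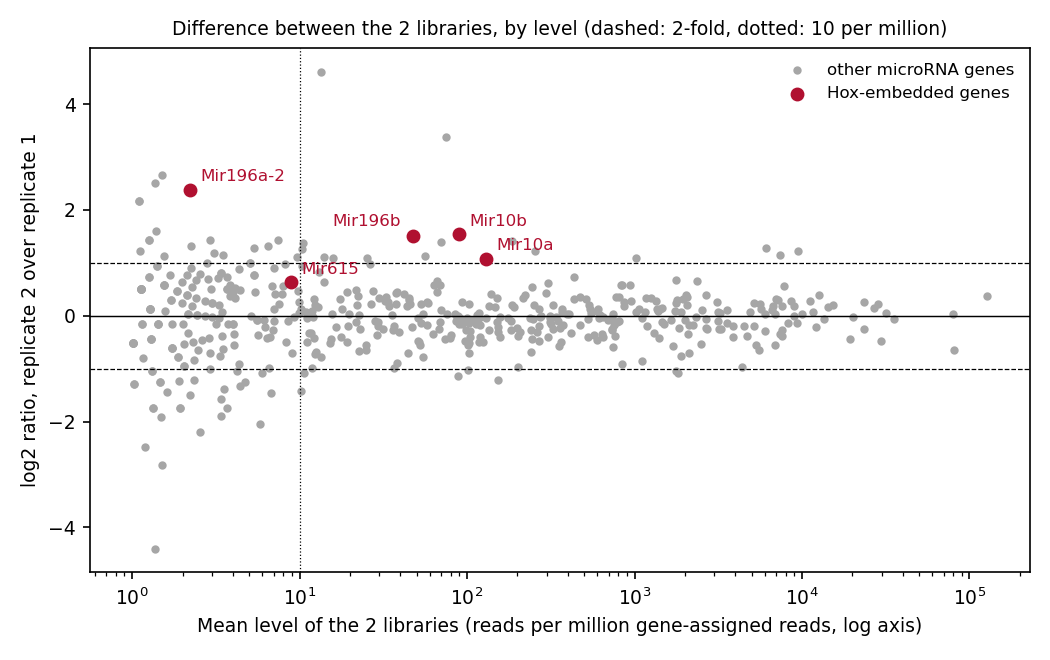
Log2 ratio of replicate 2 over replicate 1 against mean CPM on a log axis for all microRNA genes of mean CPM 1 or more (grey) and the members (red); dashed lines mark 2-fold, the dotted line 10 CPM. Mir10b, Mir196b and Mir10a lie above the upper dashed line, at 1.54, 1.5 and 1.08. Mir196a-2, on 2 and 14 reads, lies above it too, at 2.38 and left of the dotted line. Mir196a-1, with 0 reads, is not drawn.

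The ratios of the members were also set against one another. Of the 10 pairs among the 5 members with reads, 3 had ratios whose own ratio excluded 1 at a 95% interval each, not widened for the number of pairs. These intervals cover counting error and not the spread between pools, so they describe the 2 libraries only. The share of such pairs over all genes was not computed, so the count of 3 is not read as a trait of the members. The ratio of Mir10a was 0.728 times that of Mir10b (interval 0.574 to 0.922) and 0.743 times that of Mir196b (0.551 to 0.996). The ratio of Mir10b was 1.86 times that of Mir615 (1.03 to 3.30). For Mir10b and Mir196b, which lie on different chromosomes, the quotient was 1.02, with an interval of 0.740 to 1.40.

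The near-relatives of mir-10 outside the Hox clusters went the other way. Mir99a, Mir99b and Mir100 derive from the same ancestral family as mir-10, and Mir125a, Mir125b-1 and Mir125b-2 lie beside such genes. Their sequences show how close the forms are.
miR-99a-5p: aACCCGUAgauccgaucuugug
miR-100-5p: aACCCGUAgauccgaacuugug
By insertions, deletions and substitutions together, miR-10a-5p is 3 edits from miR-100-5p and 4 from miR-99a-5p, but the seeds are not the same. Mir99a had 99137 CPM in replicate 1 and 62944 in replicate 2, or 1189 and 358 times the reads of Mir10a. Mir100 had 34642 and 24857 CPM, 415 and 141 times the reads of Mir10a. Both genes were far above the members in each library and lower in replicate 2. The log2 ratios of all 6 relatives lay between -0.65 and -0.26, with a median of -0.50, and all 6 counting intervals lay below 1, against 26.8% of the 485 genes. That share is not matched for depth. Each relative had at least 2169 reads in a library, where intervals are narrow, and the 485 genes include many of few reads. The interval of the ratio of the 6 relatives summed, 0.685 to 0.690, did not overlap that of the mir-10 genes summed, 2.14 to 2.69.

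The let-7 family carries a seed like that of mir-196, moved by 1 base. Bases 2 to 7 of miR-196a-5p, AGGUAG, are bases 3 to 8 of let-7g-5p.
let-7g-5p: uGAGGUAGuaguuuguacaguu
let-7i-5p: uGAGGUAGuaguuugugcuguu
Of the 12 listed let-7 and mir-98 genes 10 were counted and analysed here. All 10 had counting intervals below 1, against 26.8% of the 485 genes with at least 10 reads in sum. That share is not matched for depth here either. Gene copies that share a mature form lose reads that map to several places, so the values of such copies do not give let-7 levels. Mirlet7g had 5815 CPM in replicate 1 and 2949 in replicate 2, and Mirlet7i 2376 and 1142 CPM. Mirlet7i was 1 of the 7 genes past 2-fold lower, with a log2 ratio of -1.05. The list's median log2 ratio over 8 genes of mean CPM 10 or more was -0.70, against 1.5 for the 3 members of that level.

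The genes nearest to the members in ratio, over these 2 libraries, were mostly of the embryonic stem cell microRNA clusters. For Mir10b and also for Mir196b they were Mir293 (333 and 994 reads, log2 ratio 1.42) and Mir294 (128 and 373 reads, 1.39), both of the mir-290 cluster. For Mir10a they were Mir5126 (53 and 126 reads, 1.09) and Mir302c (2157 and 5104 reads, 1.09). This likeness rests on 1 number per gene. Mir293 and Mir294 ranked 5 and 6 by ratio, next after Mir10b and Mir196b, while Mir211 at rank 2 was far above, at 3.38. That they were nearest thus follows from the order of the ratios and says nothing on kinship with the members. The genes nearest in mean level had no such ratio. Mir345, beside Mir10a, had 132 and 128 CPM, Mir666, near Mir10b, 92.5 and 89.6 CPM, and Mir338, near Mir196b, 50.6 and 43.4 CPM. Mir329 (148 and 121 CPM), Mir218-2 (94.9 and 85.0 CPM) and Mir7688 (41.8 and 48.9 CPM) made up the rest.

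Markers of other tissues moved in both directions beside the Hox-embedded genes, and their part in the difference was not tested. The pluripotency list, with members of both stem cell clusters, summed to 14618 CPM in replicate 1 and 33828 in replicate 2. Of its 10 counted genes, 8 reached a mean of 10 CPM. All 8 were past 2-fold higher, against 5.33% of all 338 genes of that level. These 8 are themselves among the 18 genes that make up that share. They come from both stem cell clusters and are not 8 separate observations, so the contrast is a description. Mir295, at 6.06 and 14.7 CPM, reached a mean of 10 CPM only through replicate 2, where it was higher. The eye and pigment list, Mir184, Mir204 and Mir211, summed to 249 and 431 CPM, with 3 and 95 reads of Mir184 and 43 and 504 of Mir211. Most of its reads in each library were of Mir204, with 775 and 987 reads and a ratio of 1.14 (interval 1.04 to 1.26). Mir122, the hepatocyte microRNA, had 19 and 56 reads, a ratio of 2.65 (interval 1.55 to 4.72). Like Mir295, Mir122 (5.76 and 15.2 CPM) and Mir184 (0.910 and 25.8 CPM) reached a mean of 10 CPM only through replicate 2, where they were higher. The epithelial list summed to 3397 and 4092 CPM, with genes on both sides. Of its 7 counting intervals 5 lay above 1 and 2 below, against 25.2% and 26.8% of the 485 genes with at least 10 reads in sum. The 2 below were Mir203, with a ratio of 0.767 (0.726 to 0.810), and Mir200a, with 0.704 (0.568 to 0.873).

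Lists for muscle, connective tissue and blood differed less in their sums than the pluripotency and eye lists, with members on both sides in muscle and blood. The list for somite, heart and skeletal muscle summed to 62.5 and 72.0 CPM, a ratio of 1.16 with an interval of 0.960 to 1.39. Of its 10 genes 9 were counted and analysed here, and Mir1a-1, Mir133a-1, Mir133a-2 and Mir133b, which define striated muscle, were at 0 in both libraries. The Mir133a genes encode the same mature form, as do Mir1a-1 and Mir1a-2, and reads that map to several places are not counted, so the values of 0 of Mir133a-1, Mir133a-2 and Mir1a-1 can reflect that loss. The detected genes of the list were Mir208b with 102 and 136 reads, Mir206 with 33 and 39, Mir208a with 29 and 30, Mir1b with 24 and 20 and Mir499 with 18 and 40. Of these, Mir499, known from heart and slow muscle, had a ratio of 2.00 (interval 1.12 to 3.70). The mesenchyme list summed to 16688 and 13612 CPM. All 7 of its counting intervals lay below 1, against 26.8% of the 485 genes with at least 10 reads in sum. That share is not matched for depth. The genes of the mesenchyme list ran from 17 and 7 reads for Mir199a-1 to 27511 and 23970 for Mir143, where intervals are narrow. The erythroid list summed to 404 and 374 CPM, a ratio of 0.929 with an interval of 0.861 to 1.00. Most of its reads were of Mir451a, at 354 and 295 CPM. Mir486 was higher in replicate 2, with 58 and 128 reads and a ratio of 1.98 (1.44 to 2.75), and so was Mir144, with 106 and 161 reads and a ratio of 1.36 (1.06 to 1.76). The labelled tissue was marked by Mir92b, at 21245 and 25352 CPM, and the other counted neural genes had fewer assigned reads. Mir9-3 had 137 and 66.8 CPM and Mir124a-2 17.0 and 9.78 CPM, both lower in replicate 2, and Mir124a-3 had 16 and 34 reads. The copies of mir-9 share a mature form, as do those of mir-124a, so reads that map to several places are missing and these values do not give the levels of miR-9 and miR-124.

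**Figure D4:**
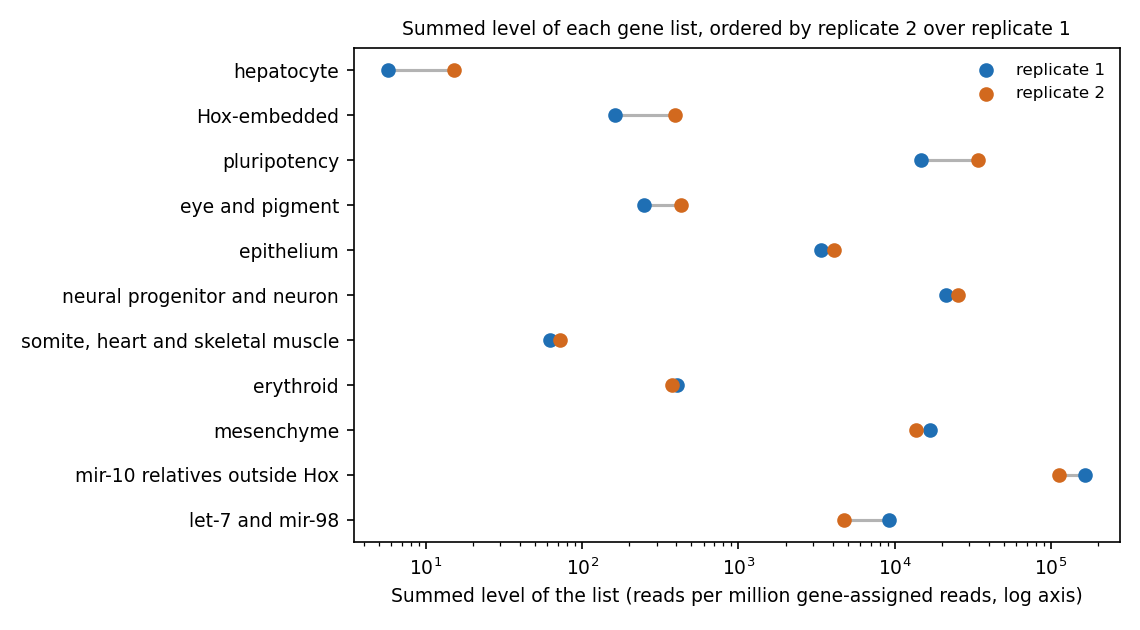
Summed level of each gene list in CPM on a log axis, blue for replicate 1 and orange for replicate 2, ordered from the highest ratio of replicate 2 over replicate 1 at the top. The Hox-embedded and pluripotency lists, and the hepatocyte list of 1 gene (Mir122), are more than 2-fold higher in replicate 2, and let-7 and the mir-10 relatives are lower.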

How the data were processed

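The deposited tables hold raw read counts for each microRNA gene of a library. According to the notes deposited beside them, the authors mapped the reads to mm10 and used GENCODE M4 for counting. No aligner or trimming step is named there or in the labels. A table has 1973 gene rows and another 4 rows that name no gene, which held 57.8% of the reads in replicate 1 and 60.9% in replicate 2 and were left out of the gene totals. The 3 count columns carry no names. The first is the sum of the others in every gene row and was used, and the second, with 97.4% and 97.3% of gene reads, was taken as the strand of the gene.

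Identifiers were matched without version to GENCODE M21 (1894 of 1973). TMM factors came from edgeR 4.0.16 and alternative size factors from DESeq2 1.42.0 (R 4.3.3), with Python 3.11.15 and scipy 1.17.1 for the rest. No test between conditions was possible with 1 group, and no p-value is given. The ratio and interval computation was tested on simulated data. The members and lists were chosen with earlier results of these data known. Named genes were the members, the listed genes and, for each member of mean CPM 10 or more, the 2 genes nearest in log2 ratio and the 2 nearest in mean CPM. Alternatives were other scalings, filters, added reads, folds, the strand column, thinning of the deeper library and leaving out each replicate. Nothing in the sources names the libraries' preparation, so the spread between them may be in part technical.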

Additional observations from a re-analysis of the deposited data

How the results depend on the processing

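The direction of every member ratio held under the 7 alternatives tried for each of the 5 members with reads, and no value left its counting interval. The log2 ratio ran from 0.96 to 1.12 for Mir10a, 1.42 to 1.57 for Mir10b, 1.39 to 1.55 for Mir196b, 0.51 to 0.67 for Mir615 and 2.08 to 2.59 for Mir196a-2. The count of members past 2-fold higher was 3, and 2 with scaling by library total (without Mir10a) or 4 with a filter of 10 reads or 1 read in sum (with Mir196a-2). Mir196a-2, with 2 and 14 reads, passed the filter of 10 reads only through replicate 2, where it was higher, so its entry is no support. The summed level of 278 CPM was 111 when divided by all reads of the library in place of gene-assigned reads, and 162 to 395 CPM when a replicate was left out. Over all 338 genes of mean CPM 10 or more, 18 (5.33%) were past 2-fold higher and 7 lower. With scaling by library total the counts were 13 higher (3.85%) and 13 lower. They were 32 (6.6%) and 29 of 485 genes with a filter of 10 reads in sum. With 1 read in sum, where more genes of few reads enter, they were 128 (16.6%) and 119 of 769. No ratio can be had without a replicate. No paired analysis was possible because there is 1 group. Depth limits Mir196a-1, Mir196a-2 and Mir615, and reads mapped to several places limit both mir-196a genes.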
